A study of Mus musculus with 2 samples.

Results

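The genes described here are the Wnt ligands, their receptors and the proteins that carry the Wnt signal into the cell, in the wall of the mouse aorta. They were chosen by name: every probe whose gene name on the array was a numbered Wnt or Fzd gene, or one of Lrp5, Lrp6, Axin1, Axin2, Lef1, Tcf7, Tcf7l2, Ctnnb1, Dvl1, Dvl2, Dvl3, Ror1, Ror2, Porcn, Apc and Gsk3b. The name Tcf7l1 was also searched for and had no probe. This gave 45 genes, read by 70 probes, of 27383 genes on the array.

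Two-colour Agilent arrays compared total RNA from the aortic arch, which the labels call atherosclerosis-prone, with RNA from the central thoracic aorta, which they call resistant. Both segments came from wild-type C57Bl/6 mice of 16 weeks with no treatment named in the labels, and each RNA pool held extracts from 6 mice, 3 males and 3 females. The arch segment held the aortic root, the arch and the proximal 2 mm of the thoracic aorta, and the thoracic segment was the next 6 mm. All vessels had first been perfused with the detergent Triton X-100 to strip the endothelium, and RNA integrity numbers lay between 7.5 and 7.7. There were 2 arrays. Array 1 had the arch pool in the red dye Cy5 and the thoracic pool in the green dye Cy3, and array 2 had the dyes exchanged. The labels give the pools on both arrays the same names and name no further pools, so the arrays were read as a dye swap of the same 2 pools and counted as 1 replicate. That the RNA was the same is inferred from those names. The value behind each ± is how far the arrays lie from their mean, which on this reading is technical only and leaves out the spread between mice, and no test was made. A gene was called different where it was at least 1.5-fold higher or lower in the same direction on each array. Where values are said to overlap or not, 2 readings of 1 pool are set against 2 readings of the other. With so few readings a small difference can also leave no overlap, and the share of all genes without overlap is not given. Such a statement describes the readings only.

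Wnt proteins are secreted, lipid-modified signals that bind Frizzled receptors, together with the co-receptors Lrp5 and Lrp6 or with Ror receptors. When Frizzled and an Lrp co-receptor are engaged, Dishevelled proteins restrain a complex of Axin, Apc and the kinase Gsk3b that otherwise marks beta-catenin for breakdown, and beta-catenin then acts in the nucleus with TCF and LEF factors. Other Wnt signals run without beta-catenin and steer cell shape and movement, and in the artery wall the pathway is known for its part in vessel development and in the growth and migration of smooth muscle cells.

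Wnt2, a ligand that works mainly through beta-catenin and is known from the developing lung and placenta, was lower in the arch pool, and it was the 1 gene called among the 40 members that could be measured. No member was called higher. Among all 21369 measured genes, 0.257% were called higher in the arch and 0.229% lower, and a single gene is too few to set the members' share apart from that background. At 1.3-fold on each array Wnt2 was again the 1 member called, with 0.627% of all genes called higher and 0.524% lower. At 2-fold no member was called, with 0.0421% and 0.0702% of all genes. That loss of Wnt2 depends on the processing, since its ratio in the scanner software's own values was −1.02 on array 1 and −1.13 on array 2, past 2-fold on each. Fzd4, a Frizzled receptor known from the growth of retinal vessels, had the next largest ratio and was not called. The 250 bases upstream of the start of each of these genes are printed because they had the largest ratios. The sequences are from RefSeq on build GRCm38.p6, at chr6:18030446-18030695 on the minus strand for Wnt2 and at chr7:89404116-89404365 on the plus strand for Fzd4. Both are written 5′ to 3′ along the gene. Capitals mark the letters GATAA or their reverse complement TTATC.

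Wnt2: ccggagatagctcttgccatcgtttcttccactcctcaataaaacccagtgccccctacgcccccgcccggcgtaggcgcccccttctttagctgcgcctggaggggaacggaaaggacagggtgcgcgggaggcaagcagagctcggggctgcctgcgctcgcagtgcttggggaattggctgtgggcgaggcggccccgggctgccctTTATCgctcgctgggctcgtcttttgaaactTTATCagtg

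Fzd4: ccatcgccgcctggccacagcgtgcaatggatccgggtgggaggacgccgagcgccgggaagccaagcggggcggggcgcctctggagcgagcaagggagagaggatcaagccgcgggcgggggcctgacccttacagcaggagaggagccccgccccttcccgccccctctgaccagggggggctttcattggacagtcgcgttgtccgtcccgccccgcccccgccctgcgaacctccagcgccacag

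GATAA or TTATC stood 2 times in the Wnt2 sequence, starting 40 and 9 bases before the start of the gene, and was absent from the Fzd4 sequence. This motif was chosen after the sequence had been read. It was found in 22.6% of all 32851 promoters of this length, and in 6 of the 41 promoters, or 14.6%, of the 32 members that the promoter table lists. The core letters bound by TCF and LEF factors, CTTTGAT or ATCAAAG, were in 3.21% of all promoters and in 2 of those 41, those of Wnt5b and Wnt11. Neither printed sequence held them. Wnt2 was 63.6% G and C over the 250 bases and Fzd4 was 72.8%. A match describes the letters only.

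The normalised intensity of Wnt2, in arbitrary units, was 169 and 158 in the arch pool on arrays 1 and 2, against 285 and 282 in the thoracic pool. Both arch values lay below both thoracic values, with no overlap. The log2 ratio of arch over thoracic aorta was −0.75 on array 1 and −0.83 on array 2, with a mean of −0.79 ± 0.04. This is a level 1.73-fold higher in the thoracic pool, and it placed Wnt2 33rd from the lowest of all measured genes. A single probe read the gene. The signal over local background, before any normalisation, pointed the same way in each dye. In Cy5 it was 116 for the arch and 265 for the thoracic pool, a ratio of 2.29, where the median over all kept probes was 1.16. In Cy3 it was 121 and 245, a ratio of 2.03, where the median over all kept probes was 1.02. The ratio was larger when taken from the scanner software's own processed signals, at −1.08 ± 0.05. In the ratios as processed here, no other member reached 1.5-fold on either array. In the scanner software's values Wnt10b read 0.88 on array 2 and Fzd8 −0.61 on array 1, each past 1.5-fold. With offset 0 Wnt10b read 0.90 on array 2. Neither gene passed 1.5-fold on its other array.

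**Figure D1:**
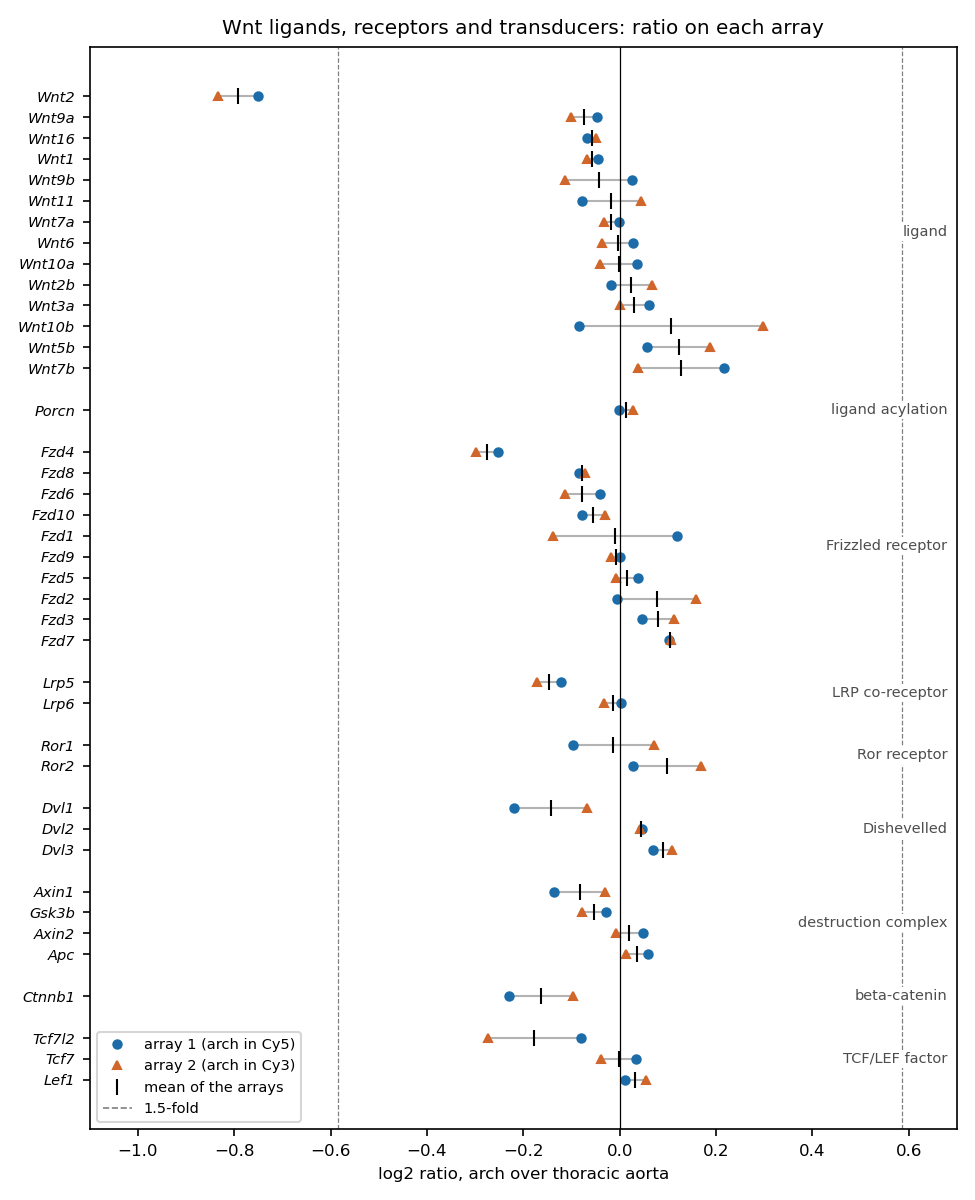
Log2 ratio of arch over thoracic aorta (horizontal axis) for the 40 measured genes, grouped by role; circles are array 1, triangles array 2, ticks their mean, and dashed lines mark 1.5-fold. Wnt2, at −0.75 and −0.83, is the only gene past a dashed line, and the other 39 genes have means between −0.28 and 0.13.

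In whole vessel wall, fewer cells of a type and less RNA per cell cannot be told apart. Markers of macrophages were also lower in the arch pool: all 8 of 8 had a mean ratio below 0, with a median of −0.15, and none was called. Their summed normalised intensity was 21050 to 23117 in the arch and 26062 to 27591 in the thoracic pool. The part of these cells in the Wnt2 and Fzd4 values was not tested. The genes next to Wnt2 on the chromosome, in RefSeq order and looked at after its value was known, had ratios nearer to 0. St7, on one side, measured −0.12 ± 0.03. Capza2 beyond it measured −0.11 ± 0.14, with opposite signs on the arrays. Cftr, on the other side, measured 0.07 ± 0.07, and Asz1, which lies between Cftr and Wnt2, was not well above background.

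Of the 19 ligands with probes, 14 had a probe well above background in a region on both arrays. Their median ratio was −0.01, and without Wnt2 they lay between −0.07 and 0.13. Wnt7b, known from lung and vascular development, had the highest ratio as processed here, with normalised intensities of 271 and 239 in the arch and 234 and 233 in the thoracic pool. Both arch values were above both thoracic values, but the ratio differed between the arrays, 0.22 on array 1 and 0.04 on array 2, and the mean was 0.13 ± 0.09. The order at this end depends on the processing. With offset 0 the means of Wnt10b (0.31 ± 0.59) and Wnt5b (0.19 ± 0.11) lay above that of Wnt7b (0.16 ± 0.11). The arrays had opposite signs for Wnt10b. With median centring Wnt7b measured 0.01. Before normalisation the thoracic over arch signal of Wnt7b was 0.97 in Cy5 and 1.00 in Cy3. Each lay below the median over all kept probes for that dye, 1.16 in Cy5 and 1.02 in Cy3. Wnt5b, a ligand of the route without beta-catenin, had 135 and 143 in the arch against 130 and 126, without overlap, and a mean ratio of 0.12 ± 0.06. Wnt10b, which is known to hold back fat cell formation, had a mean of 0.11 ± 0.19 made of −0.08 and 0.30, the widest disagreement between the arrays among the members. Its sign is not determined by these data.

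The remaining ligands were closer to 0. Wnt9a, known from joint formation, measured −0.07 ± 0.03, with 138 and 133 in the arch and 143 and 142 in the thoracic pool. Wnt1, the founding member of the family, measured −0.06 ± 0.01, and Wnt16, known from bone, measured −0.06 ± 0.01. All 3 were below 0 on both arrays, at about the size of the scatter between the arrays over all genes, an SD of 0.07 around their mean. Wnt9b (−0.04 ± 0.07), Wnt11 (−0.02 ± 0.06), Wnt6 (0.00 ± 0.03), Wnt10a (0.00 ± 0.04) and Wnt2b (0.02 ± 0.04) changed sign between the arrays. Wnt7a measured −0.02 and Wnt3a 0.03. Wnt7a passed the background limit of both arrays in the arch only, and Wnt10b in the thoracic pool only. Porcn, the enzyme that attaches the lipid to Wnt proteins, read 135 and 136 in the arch against 135 and 134, a ratio of 0.01 ± 0.01.

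Wnt3, Wnt4, Wnt5a, Wnt8a and Wnt8b were not well above background on both arrays in either region, and no ratio is given for them. Neither of the 2 probes of Wnt3, nor the probe of Wnt8a, was well above background in any channel. Wnt4 and Wnt8b passed in 2 of 4 channels, both of them Cy3, and Wnt5a in 1. Wnt5a is the best known ligand of the Ror receptors. Some of the measured genes were dim too: Gsk3b, Wnt2b, Wnt3a and Wnt7a did not stand above the 95th percentile of the negative control spots in every channel, and the other 36 did. Over those 36 the median ratio was −0.01 and the range was the same.

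All 10 Frizzled receptors were measured. Their median ratio was −0.01, and none was called. Fzd4 had normalised intensities of 426 and 446 in the arch and 508 and 549 in the thoracic pool, without overlap. Its ratio was −0.25 on array 1 and −0.30 on array 2, with a mean of −0.28 ± 0.02, and 1.38% of all measured genes lay at or below it. Before normalisation its signal over background was 1.59 times higher in the thoracic pool in Cy5 and 1.18 times in Cy3, each above the median of all kept probes for that dye. With the arrays centred on their median in place of a fitted curve over intensity, its ratio was −0.43. That centring put 65.6% of all measured genes below 0, against 48.5% with the fitted curve.

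**Figure D2:**
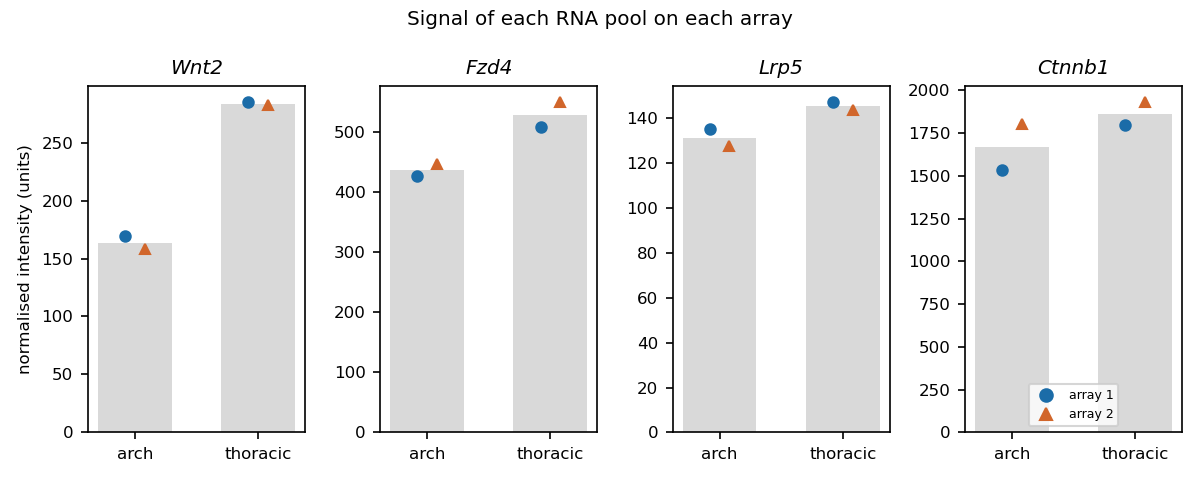
Normalised intensity in arbitrary units (vertical axis, from 0) of Wnt2, Fzd4, Lrp5 and Ctnnb1 in the arch and thoracic pools; points are the single arrays and bars their mean. Wnt2 read 169 and 158 against 285 and 282, and for Ctnnb1 the arch value of array 2, 1803, lies above the thoracic value of array 1, 1797.

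At the other end of the Frizzled family was Fzd7, a receptor for many Wnts, with 193 and 186 in the arch against 180 and 173 in the thoracic pool. The groups did not overlap, and the ratio was 0.10 ± 0.00 at its brightest probe and 0.03 at the other. Fzd3, known from axon guidance and planar polarity, had a ratio of 0.08 ± 0.03 by its brightest probe, −0.03 by its dimmer probe and 0.23 ± 0.07 by a probe that the array lists under an older clone name and that the naming rule left out. The array holds such a probe for Fzd5 too, at −0.05 ± 0.01, and for Lrp6, at −0.04 ± 0.00. Fzd2, a receptor for Wnt5a among others, measured 0.08 ± 0.08 and −0.07 at a further probe. Fzd1 gave 0.12 on array 1 and −0.14 on array 2, so that its mean of −0.01 ± 0.13 hides opposite signs. Fzd6 (−0.08 ± 0.04), a planar polarity receptor, Fzd8 (−0.08 ± 0.01) and Fzd10 (−0.06 ± 0.02) were below 0 on both arrays. Fzd5 (0.01 ± 0.02) and Fzd9 (−0.01 ± 0.01) were at 0 within the distance between arrays. The 2 probes of Fzd8 had opposite signs, at −0.08 and 0.02. In the scanner software's own values its brightest probe read −0.47 ± 0.13, the largest ratio of any member other than Wnt2 under any processing tried.

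Both Lrp co-receptors were measured. Lrp5, known from bone mass and from eye vessels, read 135 and 128 in the arch and 147 and 144 in the thoracic pool, which do not overlap, and had a ratio of −0.15 ± 0.02. Lrp6, the more widely used co-receptor, measured −0.01 ± 0.02, with 70.3 and 72.7 against 70.1 and 74.4. The Ror receptors bind Wnts without an Lrp partner. Ror2 measured 0.10 ± 0.07, with 154 and 152 in the arch against 151 and 136 in the thoracic pool, and Ror1 measured −0.01 ± 0.08 with opposite signs on the arrays. None of these 4 genes was called.

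Dishevelled proteins pass the signal on from the receptor. Dvl1 had the lowest ratio of the 3, −0.14 ± 0.07, with 202 and 199 in the arch and 235 and 208 in the thoracic pool. The groups did not overlap, but a second probe of Dvl1 gave 0.05. Dvl2 measured 0.04 ± 0.00 and Dvl3 0.09 ± 0.02, both above 0 on each array.

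Among the proteins that mark beta-catenin for breakdown, the 4 measured genes lay between −0.08 and 0.04. The scaffold Axin1 was lowest, at −0.08 ± 0.05, with 72.6 and 85.9 in the arch and 79.8 and 87.7 in the thoracic pool, which overlap. The kinase Gsk3b measured −0.05 ± 0.03 and passed the background limit of both arrays in the thoracic pool only. Both were dim, and their ratios changed with the processing. With offset 0 in place of 50 they were −0.23 and −0.19, and in the scanner software's values, which differ also in background correction and normalisation, they were −0.35 and −0.30. The scaffold Apc measured 0.04 ± 0.02, and its 3 kept probes ran from −0.03 to 0.05. Axin2, which is both a brake on the pathway and one of its best known target genes, read 88.1 and 86.9 in the arch against 85.3 and 87.3 in the thoracic pool. These overlap, and its ratio was 0.02 ± 0.03.

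Ctnnb1, the gene of beta-catenin, read 1532 and 1803 in the arch and 1797 and 1929 in the thoracic pool. The arch was lower on each array, although the groups overlap by a few units across arrays, and the ratio was −0.16 ± 0.07. Its 3 probes were all below 0, from −0.21 to −0.16. Tcf7l2, a partner of beta-catenin on DNA, measured −0.18 ± 0.10 at its brightest probe, with 390 and 439 in the arch and 413 and 531 in the thoracic pool. The groups overlap, and its 4 probes ran from −0.18 to 0.02, the widest spread of probes within a member. Before normalisation the thoracic over arch signal of Ctnnb1 was 1.53 in Cy5 and 1.01 in Cy3, and that of Tcf7l2 was 1.70 and 0.96. The medians over all kept probes were 1.16 in Cy5 and 1.02 in Cy3. Both genes lay above that median in Cy5 and below it in Cy3, so the dyes did not point the same way. Lef1 measured 0.03 ± 0.02 and Tcf7 0.00 ± 0.04. With median centring the ratio was −0.34 for Ctnnb1 and −0.33 for Tcf7l2. That centring lowered ratios more widely. It put 65.6% of all measured genes below 0, with a median of −0.04, against 48.5% and 0.00 as processed here. Fzd1 went from −0.01 to −0.18 with it, while Wnt7a went from −0.02 to 0.02. The larger ratios of Ctnnb1 and Tcf7l2 are therefore not particular to these genes.

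**Figure D3:**
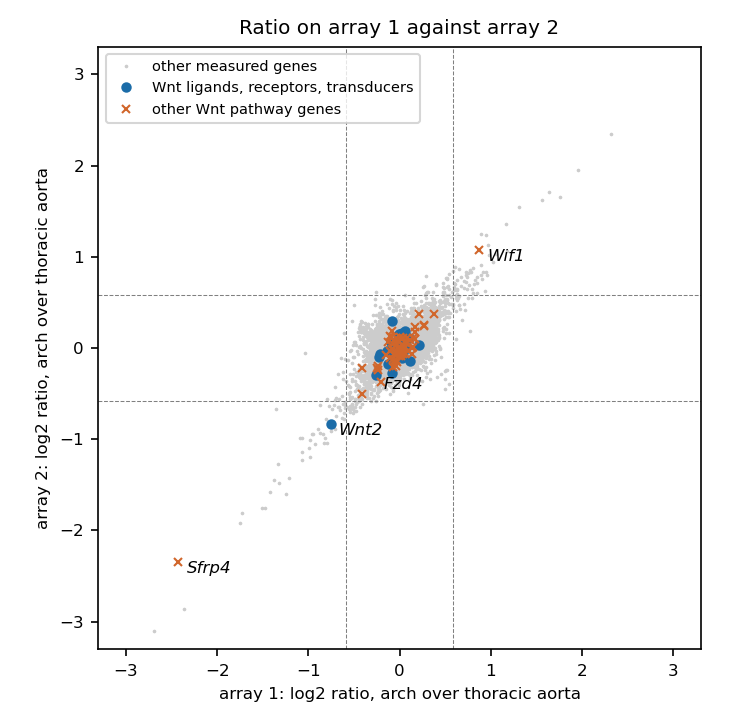
Log2 ratio of arch over thoracic aorta on array 1 (horizontal axis) and array 2 (vertical axis) for every measured gene in grey, the Wnt ligands, receptors and transducers as circles and other Wnt pathway genes as crosses; dashed lines mark 1.5-fold. Wnt2 at −0.75 and −0.83, Sfrp4 and Wif1 lie past 1.5-fold on both axes.

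Seen as a set, the 40 members were close to the rest of the array. Their median was −0.01, against 0.00 over all measured genes, with 16 above 0 and 24 below. Of all measured genes, 48.5% lay below 0. Of the 40 members, 38 lay within 0.2 of 0, and 93.1% of all genes did. Within 0.1 of 0 lay 30 members, or 75.0%, and 79.0% of all genes. The background offset draws the ratios of dim members towards 0, so these counts do not show equal levels for them. The sign was the same on both arrays for 24 members, or 60.0%, and for 54.9% of all genes. Where a member had several kept probes, they often disagreed in sign, as they did for 8 of 12 such genes. The count below 0 moved between 21 and 25 of 40 when single arrays, another background offset, the scanner values, median centring or the mean over probes were used. With median centring Fzd2 (−0.08), Porcn (−0.05) and Apc (−0.02) turned from above 0 to below it, and Lrp6, Tcf7, Wnt7a and Wnt10a turned from below to above, each to 0.02 or less.

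Of 76 other genes of the pathway, listed by role with earlier results of these data known, 68 were measured, 7 were not well above background and 1, Dact3, was not found by its symbol. One was called higher and one lower, both of them secreted inhibitors that bind Wnt proteins. Wif1 read 995 and 1031 in the arch and 545 and 491 in the thoracic pool. The groups stand well apart, and the ratio was 0.97 ± 0.10, or 1.96-fold. Sfrp4 read 910 and 614 in the arch and 4888 and 3120 in the thoracic pool, a ratio of −2.39 ± 0.04. Over all measured genes 0.257% were called higher and 0.229% lower, and a single gene each way sets nothing apart. The median over the 68 genes was 0.00, and 80.9% lay within 0.2 of 0, against 93.1% of all genes.

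The 17 measured genes of ligand handling and secreted modulation had the widest spread, and 11 of them lay within 0.2 of 0. Beside Wif1 and Sfrp4, Sfrp1 had a ratio of 0.37 ± 0.00, with 0.14 from its dimmer probe. It belongs to the same family of secreted Frizzled-related inhibitors as Sfrp4 and had the opposite sign under every processing tried. Gpc3, a cell-surface proteoglycan, measured −0.32 ± 0.09. Neither Sfrp1 nor Gpc3 was called. Dkk2, Dkk4, Sostdc1 and Cer1, also secreted inhibitors, were not well above background.

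In the other lists no gene was called. Of 15 measured membrane and planar polarity genes, 14 lay within 0.2 of 0. The exception by brightest probe was Prickle1, a cytoplasmic planar polarity protein, at 0.26 ± 0.01 with 0.01 at its other probe. Lgr4 measured −0.09 ± 0.04 at its brightest probe, but its 3 kept probes ran from −0.10 to 0.27. Lgr5 and Rnf43 were not well above background. Of 17 measured cytoplasmic regulators, 16 lay within 0.2 of 0, and Amer1, which anchors Apc at the membrane, was outside at −0.23 ± 0.01. Of 12 nuclear partners, 10 did so, and those outside were Bcl9l, a beta-catenin co-activator, at −0.23 ± 0.00 and Tle1, a co-repressor that binds TCF factors, at −0.22 ± 0.02.

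The textbook targets of beta-catenin did not share a direction. Of 12 measured, 8 were above 0, the median was 0.02 and 3 of the 12 are themselves members (Axin2, Lef1 and Tcf7). Cd44, an adhesion receptor, was lowest, at −0.46 ± 0.04, with 271 and 267 in the arch and 362 and 378 in the thoracic pool, while another of its probes gave 0.01. Ccnd1, which drives entry into the cell cycle, measured −0.29 ± 0.08. Ccn4, a matricellular protein first described as Wnt-induced, measured 0.20 ± 0.03, and Myc measured 0.17 ± 0.00, with 0.01 at another probe. Sp5, a transcription factor, was not well above background.

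**Figure D4:**
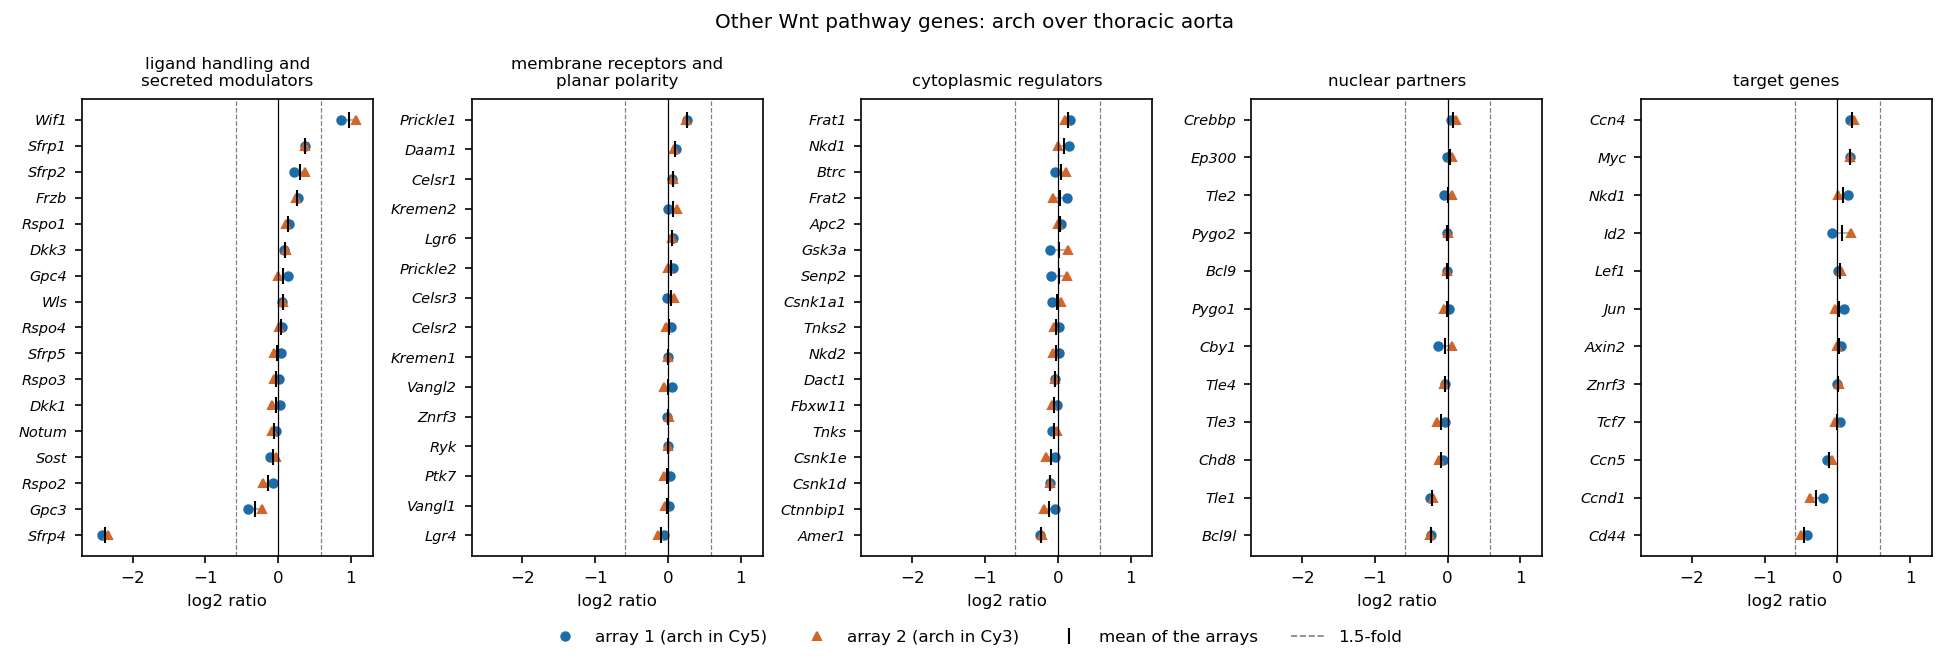
Log2 ratio of arch over thoracic aorta (horizontal axes) for the measured genes of 5 lists of Wnt pathway genes; circles are array 1, triangles array 2, ticks their mean, and dashed lines mark 1.5-fold. Wif1 at 0.97 and Sfrp4 at −2.39 are the only genes past the dashed lines on both arrays.

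The median gene spot signal lay between 87.1 and 97.1 units over a local background of 40 to 48, and 71.3% to 81.5% of gene spots were well above background. The ratios of the 2 arrays had a Pearson r of 0.58 and a Spearman rho of 0.25 across genes, which are not independent replicates, and the arrays share their RNA. Markers of smooth muscle, the tissue named in the labels, were present: all 8 were measured, with a median ratio of −0.03. Of 7 endothelial markers, 6 were measured, with a median ratio of 0.02 and a summed intensity of 586 and 600 in the arch and 539 and 576 in the thoracic pool. Pecam1 and Cdh5, which define that cell type, were among those measured. Some markers of other tissues were higher in the arch. Called higher there were 2 of 8 adipocyte markers, 4 of 6 brown adipocyte markers, 3 of 7 measured cardiomyocyte markers and 1 of 5 measured cartilage markers, Cytl1. Within these lists Retn, an adipocyte marker, measured −0.25 and Actc1, a cardiomyocyte marker, −0.05. The summed cardiomyocyte intensities overlapped, at 14891 and 14735 in the arch and 13479 and 15317 in the thoracic pool. Markers of fibroblasts, of nerve and Schwann cells and of lymphocytes had medians of 0.05, 0.05 and 0.04, with none called. All 7 mesothelial markers were above 0, with a median of 0.41 and none called. The part of these tissues in the members' values was not tested.

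**Figure D5:**
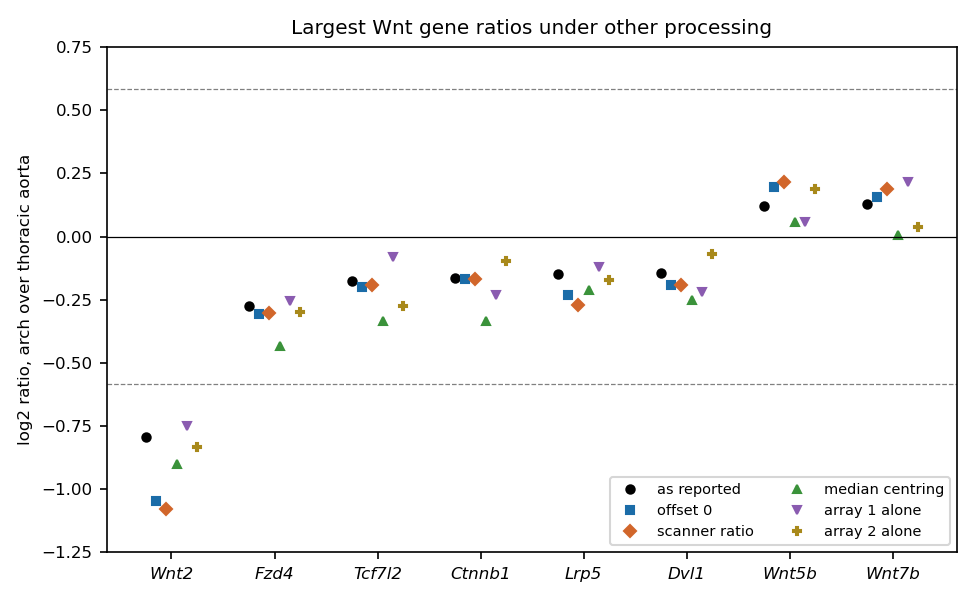
Log2 ratio of arch over thoracic aorta (vertical axis) for the 8 Wnt genes with the largest ratios, as reported and under 5 other ways of processing the same arrays; dashed lines mark 1.5-fold. Wnt2 stays between −1.08 and −0.75, below the lower dashed line throughout, and no other gene crosses a dashed line.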

How the data were processed

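RNA from 2 pools was compared on 2 two-colour arrays with exchanged dyes. Per the file headers, the authors' scanner files hold, for each of 43790 spots, mean signal intensity and local background intensity in each dye, and the software's log10 ratio of Cy5 over Cy3. The submitters' processing notes name Agilent Feature Extraction 9.1.1.1. With the sign set so that a higher arch signal is positive, the deposited value table matched that log10 ratio for 99.9% of features (tolerance 1e-06).

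From the intensities, background was corrected with normexp (offset 50) and arrays were normalised by loess in limma 3.58.1 (R 4.3.3), with control spots at weight 0. The software's outlier flags removed 20 and 4 spots. The sign of the array with the arch in Cy3 was turned, and log2 ratios were averaged over arrays. A probe was kept (30520 of 41150) where both arrays' software calls put 1 of the regions well above background. Each gene took its brightest kept probe. Normalised intensities follow loess and quantile scaling of average intensity between arrays, and they are not compared between probes. Probes were named through RefSeq by accession (22852), name (6729) or synonym (3495), and 8074 kept the array's name. The members were chosen by the array's own gene names.

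Both arrays were read as carrying the same pools, from their names in the labels, so there was 1 replicate, no test and only technical error, and the small number of arrays limits the precision. Calls needed 1.5-fold on each array. Every member could be named. Among other pathway genes, those called and up to 4 per role with the largest ratios were named, with the members that were not measured. The members and lists were chosen with earlier results of these data known. Steps were tested on simulated dye swaps. Alternatives were offset 0, the software's ratio, the value table, median centring, 2 other probe filters, the mean over probes, each array alone, and folds of 2 and 1.3.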

Additional observations from a re-analysis of the deposited data

How the results depend on the processing

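Wnt2, Wif1 and Sfrp4 were the same calls with offset 0, the scanner software's log ratio, the value table, median centring, either probe filter, the mean over probes and either array alone. With a 2-fold rule 0 members were called lower, 0 other pathway genes were called higher, and Sfrp4 remained. With a 1.3-fold rule 2 other pathway genes were called lower, Cd44 and Sfrp4. The count over all genes, 55 higher and 49 lower, was 117 and 104 with offset 0, 152 and 128 with the scanner software's ratio and with the value table, 28 and 75 with median centring, 9 and 15 at 2-fold and 134 and 112 at 1.3-fold. Higher calls were 52.9% of all calls, and 27.2% with median centring; the cause was not tested. With either array left out, the counts were 72 to 81 higher and 62 to 67 lower for all genes, 0 and 1 for the members and 1 and 1 for other pathway genes. The members' median ran from −0.0307 (without array 1) to −0.0014 (without array 2), beside −0.0091 with both. Of the 40 measured members, 22 kept their sign under each of the 9 other ways of computing the ratio that gave them a value (Gsk3b had none with the stricter probe filter). No called gene turned its sign. No paired analysis was possible because the arrays were read, from the pools' names in the labels, as a dye swap of the same pools. Signal over background is the limit here: an offset of 50 draws the ratios of dim members towards 0.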
